A study of Mus musculus with 42 samples.

Results

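The 9 genes below were listed together as genes of the brown adipocyte heat programme. They are Ucp1, Otop1, Letmd1, Cox7a1, Cox8b, Cidea, Acot11, Pank1 and Kng2, and were followed through ear skin, aorta and liver of mice on 3 diets. They were taken by symbol, 9 of the 48709 genes in the table of counts, and they had been chosen from earlier results of the aortic diet comparisons in these same libraries. Their aortic differences between the omega-3 diets and the control diet are therefore given as a description, without a test. All 9 had enough counts to be tested in aorta, 2 of 9 (Pank1 and Kng2) in liver and 0 of 9 in ear skin.

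Brown adipocytes burn fatty acids to make heat. Noradrenaline acts on beta-adrenergic receptors, lipolysis frees fatty acids from lipid droplets, and UCP1 lets protons back across the inner mitochondrial membrane, so that the respiratory chain runs without making ATP. In rodents such cells lie between the shoulder blades and around the thoracic aorta, where the perivascular fat resembles brown fat.

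All animals were K14-Rac1V12 mice, a transgenic line in which an active form of the GTPase Rac1 is driven by the keratin 14 promoter in basal keratinocytes and which is used as a model of psoriasis. No library came from mice without the transgene. The mice were 14 weeks old and had eaten an omega-3-deficient diet for 2 weeks. For the next 12 weeks they stayed on that diet (OD) or ate one rich in eicosapentaenoic acid (EPA) or docosahexaenoic acid (DHA), each given at 3 g per kg of diet. The label of the DHA dose names EPA and is read here as DHA. Each tissue had 4 OD, 5 EPA and 5 DHA libraries. Aortas ran from the heart to the iliac bifurcation and, per the labels' protocols, were freed of perivascular fat. Library numbers below (OD 1, EPA 4) follow accession order and are names only.

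The promoters of the members the results turn on are shown first, from RefSeq on GRCm38.p6, 250 bases before to 50 bases after the gene's start and on the gene's own strand. Ucp1 defines the cell type, Cox7a1 and Cox8b are the paired cytochrome oxidase forms, and Letmd1 and Kng2 share a motif with Ucp1. They lie at chr8:83290098-83290397 (plus strand), chr15:100468761-100469060 (plus), chr7:30183921-30184220 (plus), chr7:140900397-140900696 (minus) and chr16:23029052-23029351 (minus) in the order printed. Capitals mark, on either strand, the nuclear receptor motif AGGTCA, the TGACG of the cAMP response element, the TATAAA of a TATA box and the CCAAT of a CCAAT box.
Ucp1: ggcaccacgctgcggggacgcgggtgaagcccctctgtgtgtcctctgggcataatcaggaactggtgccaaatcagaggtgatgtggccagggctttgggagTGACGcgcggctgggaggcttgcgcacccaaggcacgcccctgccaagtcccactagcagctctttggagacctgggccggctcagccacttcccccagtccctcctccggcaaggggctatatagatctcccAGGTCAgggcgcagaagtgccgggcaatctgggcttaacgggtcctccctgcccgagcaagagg
Letmd1: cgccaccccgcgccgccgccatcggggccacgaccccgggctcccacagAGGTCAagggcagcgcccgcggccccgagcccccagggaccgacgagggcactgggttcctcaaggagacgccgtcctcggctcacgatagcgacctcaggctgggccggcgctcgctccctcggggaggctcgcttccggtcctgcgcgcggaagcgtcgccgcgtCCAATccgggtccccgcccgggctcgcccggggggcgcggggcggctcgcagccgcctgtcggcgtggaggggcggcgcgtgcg
Cox7a1: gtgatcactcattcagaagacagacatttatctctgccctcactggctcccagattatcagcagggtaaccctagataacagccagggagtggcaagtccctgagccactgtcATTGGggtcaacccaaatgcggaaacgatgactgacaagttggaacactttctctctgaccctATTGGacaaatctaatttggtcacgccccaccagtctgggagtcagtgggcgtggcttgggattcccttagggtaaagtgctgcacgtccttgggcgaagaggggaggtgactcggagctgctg
Cox8b: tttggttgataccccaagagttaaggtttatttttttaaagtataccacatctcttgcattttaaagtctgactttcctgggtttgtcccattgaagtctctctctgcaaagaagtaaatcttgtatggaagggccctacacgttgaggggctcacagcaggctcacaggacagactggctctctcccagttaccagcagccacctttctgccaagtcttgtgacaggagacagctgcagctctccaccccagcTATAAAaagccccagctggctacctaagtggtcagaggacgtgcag
Kng2: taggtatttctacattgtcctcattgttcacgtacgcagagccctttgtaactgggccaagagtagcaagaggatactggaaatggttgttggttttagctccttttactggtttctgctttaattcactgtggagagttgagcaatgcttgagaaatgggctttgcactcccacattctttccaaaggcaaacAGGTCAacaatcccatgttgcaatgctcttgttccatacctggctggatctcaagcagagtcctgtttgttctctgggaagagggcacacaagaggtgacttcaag

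The table held 10 promoters for 8 members, Acot11 and Pank1 having 2 each. AGGTCA, the core motif of many nuclear receptors, was in 3 of 10: 14 bases before the start in Ucp1, 56 bases before it in Kng2 and 201 before it in Letmd1. It was in 16.3% of all 32851 RefSeq mouse promoters of this length. The longer AAGGTCA, which holds AGGTCA, was in 0 of 10 against 4.72% of all. TGACG, the core of the cAMP response element, was in the Ucp1 promoter alone, 147 bases before the start, against 20.8% of all, and the palindrome TGACGTCA, which holds TGACG, in 0 of 10 against 1.79%. CCAAT was in 4 of 10 (37.4% of all), with 2 matches in Cox7a1, at 137 and 74 bases before the start. TATAAA was in 2 of 10 (13.6% of all), in Cox8b and in 1 of the Pank1 promoters, GGGCGG in 3 of 10 (35.7%) and CCGGAAG in 1 of 10 (8.86%). Both strands were searched, and a match is only a match of letters.

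Aortic libraries held 179795 to 717508 counts, liver libraries 343824 to 768532 and skin libraries 40157 to 220488, so that 3 counts equal 4.02 to 19 CPM (counts scaled by library size) in aorta, 4.29 to 9.18 in liver and 18.5 to 106 in skin. The scaling used TMM factors and the total of the genes tested in the tissue. In each tissue 3 libraries (EPA 1, EPA 5 and DHA 1) had over 200 CPM of Xist, the X-inactivation transcript of female cells. The set holds no OD library, so high Xist is not balanced in the contrasts against OD. In aorta 3 libraries (EPA 2, DHA 3 and DHA 5) had over 100 CPM of Acta1, the skeletal muscle actin. Calls that end without either set are given with the results they touch.

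The 9 genes were genes of the aorta samples, with Pank1 and Kng2 also, and more, in liver. Ucp1 (chr8:83290352-83298452) had 1515 ± 612 CPM in aorta (SD, n = 14), with 131 to 1268 counts in each library. It had 0 to 3 counts in every liver and 0 to 4 in every skin library. In a fit of all 42 libraries the mean of the 3 diets was 8.39 ± 0.27 log2 units (SE) higher in aorta than in liver for Ucp1 and 6.85 ± 0.26 higher than in skin. The members had to be measurable in aorta to be chosen, so the aortic side of these contrasts is not independent of the choice.

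Against liver, 7 of 9 members were higher in aorta and 2 lower, where 35.6% of the 9912 genes tested were higher and 30.5% lower (edgeR, quasi-likelihood, adjusted p under 0.05). Cox8b was higher by 8.49 ± 0.27 log2 units, Cox7a1 by 6.46 ± 0.23, Cidea by 6.17 ± 0.21, Acot11 by 3.74 ± 0.26 and Letmd1 by 2.32 ± 0.15. Liver counts behind these were 0 to 4 for Cox8b, 1 to 14 for Cox7a1, 0 to 3 for Cidea, 0 to 6 for Acot11 and 4 to 11 for Letmd1. Otop1, also called higher, had 520 counts over the 14 aortas and 3 over the 14 livers, too few for a firm fold. Pank1 and Kng2 were lower in aorta, at -1.99 ± 0.13 and -3.89 ± 0.15.

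Against skin all 9 were higher in aorta, from 1.83 ± 0.18 log2 units for Pank1 to 6.85 ± 0.26 for Ucp1, where 33.9% of genes were higher and 28.9% lower. Skin libraries are the shallowest and had 1 to 20 counts of Cox8b, 1 to 11 of Cox7a1, 1 to 10 of Cidea and 2 to 12 of Pank1. Otop1 had 1 count over all 14 skin libraries, and Acot11 and Kng2 had 5 each. The tally against skin, too, describes levels and is no test. Between liver and skin, Ucp1, Otop1 and Acot11 never reached 10 counts and are not compared. Of the other 6, Kng2 (8.31 ± 0.29), Pank1 (3.82 ± 0.17) and Letmd1 (1.98 ± 0.33) were higher in liver and Cox8b (-3.19 ± 0.36), Cidea (-2.67 ± 0.33) and Cox7a1 (-0.94 ± 0.34) higher in skin, beside 33.9% of genes higher in liver and 37.4% lower. Bulk RNA cannot tell fewer cells of a type from less RNA per cell, here and in all that follows.

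**Figure D1:**
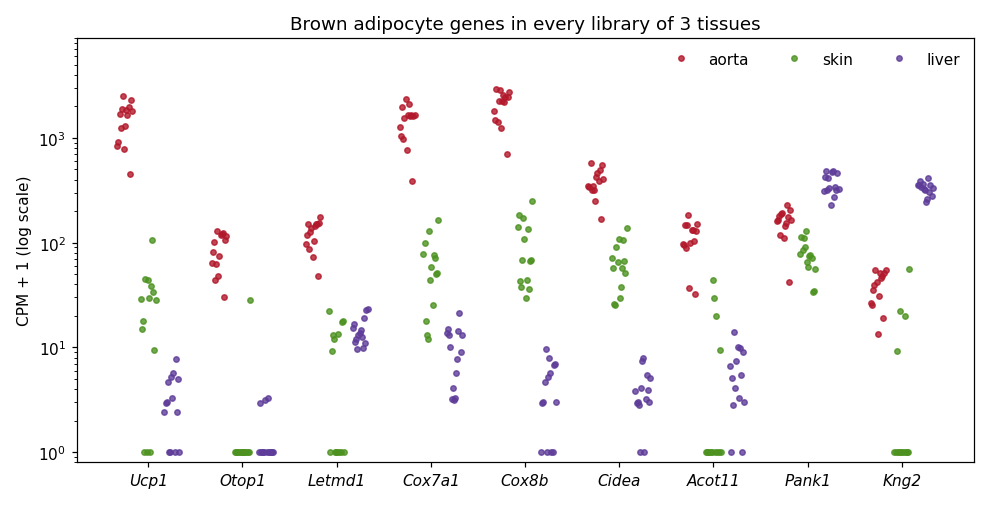
Level of each of the 9 genes in every library, as CPM plus 1 on a log scale, by tissue. Aorta (14 points a gene) lies above skin and liver for 7 genes, except 1 skin point of Acot11 at 42.7 CPM, and the liver points of Pank1 and Kng2 lie above their aortic points.

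The labelled cell type was checked against other brown adipocyte genes. Elovl3, which elongates fatty acids in brown fat, set the aorta apart only a little as a mean over the 3 diets. It had 29.9 ± 15.4 CPM in OD aortas (SD, n = 4). Over all diets it had 69.8 ± 39.6 in aorta, 26.5 ± 29.1 in liver and 55.2 ± 27.2 in skin (SD, n = 14 each). The difference was 0.77 ± 0.27 log2 units from liver and 1.06 ± 0.33 from skin. Diet went in opposite directions in the 2 tissues. In aorta Elovl3 was called higher on DHA than on OD. In liver it was at -1.78 ± 0.60 for DHA minus OD and -2.47 ± 0.64 for EPA minus OD, neither past the threshold. The mean over diets therefore does not describe aorta against liver on OD. The coactivator gene Ppargc1a was also close, with 60.3 ± 37.0 CPM in aorta, 40.5 ± 9.91 in liver and 20.7 ± 23.7 in skin. Cpt1b (143, 1.93 and 7.56 CPM in the same order) and Ebf2 (36.3, 0.297 and 14.4) were further apart. Dio2, which activates thyroid hormone in brown fat, had 78.3 ± 28.3 CPM in OD aortas and was 6.05 ± 0.37 log2 units higher in aorta than in liver and 2.43 ± 0.28 higher than in skin. Prdm16, a regulator of brown adipocyte identity, stood at 74.7 ± 31.4 CPM in OD aortas and was 4.69 ± 0.30 log2 units higher in aorta than in liver and 3.77 ± 0.35 higher than in skin. Zic1 and Lhx8, markers of interscapular brown fat, were near absent, with 0 to 2 and 0 to 3 counts per aorta. The white adipocyte hormone gene Lep had 0 to 3 counts per aorta, and Adipoq, made by white and brown adipocytes, had 198 to 455 CPM.

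In aorta every member had a higher mean on DHA and on EPA than on OD. For 6 of 9 members all 5 DHA libraries lay above all 4 OD libraries. For EPA that held for 1 member, Letmd1. Over all 6538 genes tested in aorta 5.38% had every DHA library above every OD library and 1.9% every EPA library, and since these contrasts chose the members nothing is read from the shares.

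**Figure D2:**
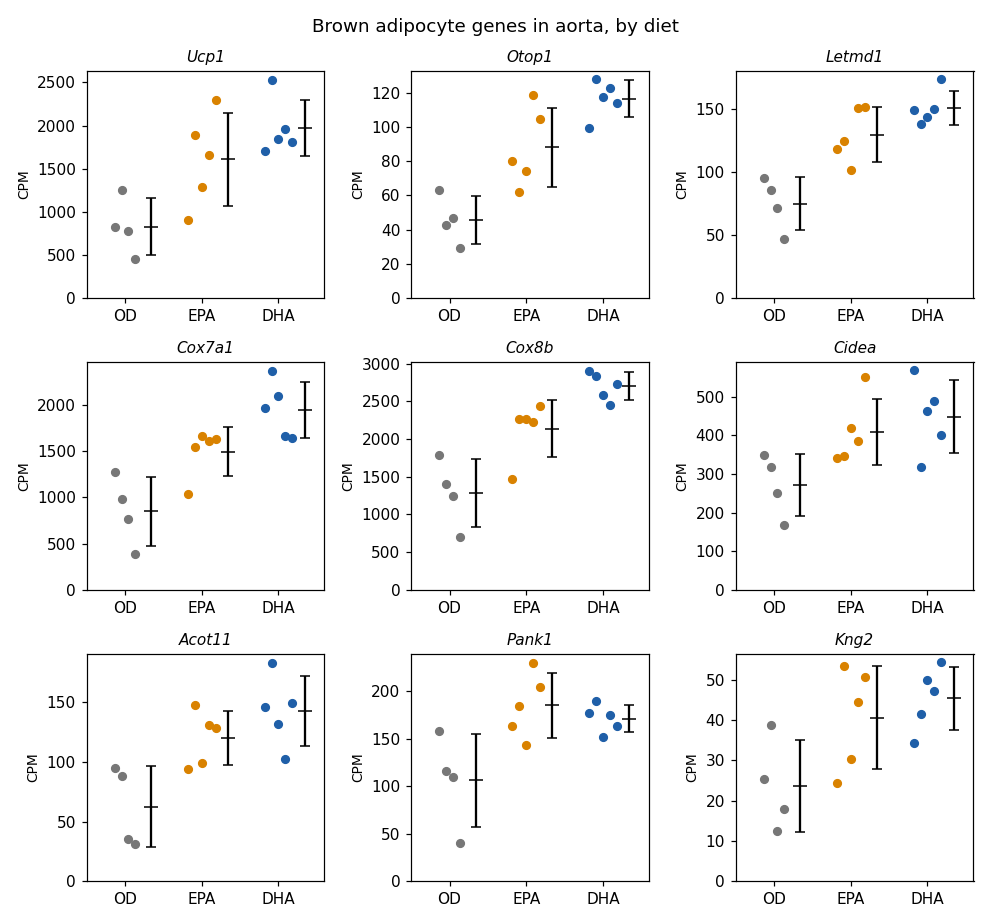
CPM of each gene in the 14 aortas by diet, 1 point a library, with the mean and SD beside it, each axis from 0. OD 4 is the lowest of the 14 points for every gene but Kng2, whose lowest point is OD 3.

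The proton-handling members come first. Ucp1 had 832, 1255, 781 and 451 CPM in OD 1 to 4. It had 905, 1895, 1289.7, 1659 and 2293 in EPA 1 to 5 and 1704, 2532, 1851, 1964 and 1807 in DHA 1 to 5. DHA and OD did not overlap, while EPA 1 fell inside the OD range. The group means were 829 ± 330, 1608 ± 536 and 1971 ± 327 CPM for OD, EPA and DHA (SD, n = 4, 5 and 5). The log2 difference was 1.25 ± 0.26 (SE) for DHA minus OD and 0.96 ± 0.26 for EPA minus OD. Otop1 (chr5:38275972-38304217) encodes otopetrin 1, a proton channel. Its OD libraries had 63.5, 42.8, 46.7 and 29.4 CPM, the EPA libraries 80, 62.2, 74.2, 119 and 105, and the DHA libraries 99.5, 128, 118, 123 and 114. OD 1 and EPA 2 lay close together, and all DHA libraries stood above both. Otop1 had the largest difference of the 9 for DHA minus OD, at 1.46 ± 0.22, with 1.06 ± 0.22 for EPA minus OD.

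Letmd1, Cox7a1 and Cox8b encode mitochondrial proteins. Letmd1 (chr15:100469023-100479164), whose product is needed in mice for heat production by brown fat mitochondria, had 95.2, 85.7, 71.8 and 47.4 CPM on OD. It had 118, 124, 102, 151 and 152 on EPA and 149, 138, 143, 149.7 and 174 on DHA. Neither omega-3 group overlapped OD, and the differences were 1.06 ± 0.19 and 0.85 ± 0.19 for DHA and EPA. Cox7a1 (chr7:30184144-30186078), the heart and muscle form of a cytochrome c oxidase subunit that brown fat also uses, had 1269.6, 980.1, 772 and 384 CPM on OD. It had 1034, 1543, 1661, 1610.0 and 1627 on EPA and 1962, 2362, 2092, 1665 and 1638 on DHA. EPA 1 stood below OD 1 and apart from the other 4 EPA libraries. The differences were 1.21 ± 0.24 for DHA and 0.84 ± 0.24 for EPA. Cox8b (chr7:140898945-140900446), the other such subunit form, had 1790.2, 1409.8, 1245 and 703 CPM on OD, 1476, 2265, 2260.4, 2221 and 2443 on EPA, and 2907, 2836, 2577, 2448 and 2728 on DHA. EPA 1 again fell within the OD range. Its differences were 1.08 ± 0.21 for DHA and 0.74 ± 0.21 for EPA.

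Cidea, Acot11 and Pank1 act on lipid stores and coenzyme A. Cidea (chromosome 18, 67343604 to 67367785), a lipid droplet protein that helps droplets fuse, had 349, 319, 249 and 167 CPM on OD, 341, 347, 418, 386 and 551 on EPA, and 569, 318, 462, 488 and 402 on DHA. DHA 2 lay within the OD range, so the groups overlapped, and Cidea had the smallest difference of the 9 for both diets, 0.76 ± 0.20 and 0.63 ± 0.20. Acot11 (chr4:106744555-106804998), a thioesterase that splits fatty acyl-CoA and is induced by cold in mouse brown fat, had 95.2, 88.4, 35.9 and 31.1 CPM on OD, 94, 148, 99, 131 and 128 on EPA, and 146, 183, 132, 103 and 149 on DHA. OD fell into a higher and a lower pair. The differences were 1.26 ± 0.27 and 1.06 ± 0.27. Pank1 (chr19:34806940-34879455), a pantothenate kinase at the first step of coenzyme A synthesis, had 159, 116, 109 and 40.9 CPM on OD, 164, 185, 143, 230.0 and 204 on EPA, and 177, 190.0, 151, 175 and 163 on DHA. Pank1 was the 1 member with a larger difference for EPA (0.91 ± 0.23) than for DHA (0.79 ± 0.24).

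Kng2 (chr16:22985854-23029482) is 1 of 2 mouse kininogen genes, whose plasma proteins release kinins. It was the member with the fewest aortic counts, 4 to 30 per library. It had 25.4, 38.8, 12.6 and 18 CPM on OD, 24.4, 53.3, 30.2, 44.5 and 50.6 on EPA, and 34.2, 41.4, 49.8, 47.1 and 54.3 on DHA. OD 2 reached into both other groups. The differences were 0.92 ± 0.30 for DHA and 0.80 ± 0.30 for EPA.

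Across the 9 members the median log2 difference was 1.08 for DHA minus OD and 0.85 for EPA minus OD, beside medians of -0.05 and -0.02 over all genes tested in aorta. Both contrasts share the 4 OD aortas. Without the 3 aortas high in Acta1 the members' differences ran from 0.78 (Kng2) to 1.46 (Otop1) for DHA and from 0.69 (Cidea) to 1.18 (Otop1) for EPA. Under the other 22 settings tried they ran from 0.48 (Pank1 without OD 4) to 1.68 (Acot11 without OD 2) for DHA and from 0.45 (Cidea without OD 4) to 1.48 (Acot11 without OD 2) for EPA.

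EPA and DHA were also set against each other. This contrast uses again the aortic libraries that chose the members, so its signs for the members are not independent of that choice. The EPA minus DHA difference was below 0 for 8 of 9 members and above 0 for Pank1, with a median of -0.21 (0.01 over all genes), and 0% of genes passed the threshold; 226 genes had an unadjusted p under 0.05, and limma and DESeq2 also called 0. The estimates ran from -0.40 (95% interval -0.79 to -0.02) for Otop1 to 0.13 (-0.30 to 0.56) for Pank1. For Ucp1 it was -0.29 (-0.77 to 0.20) and for Cox7a1 -0.38 (-0.83 to 0.08), so a lower EPA level by up to those bounds is within the data.

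**Figure D3:**
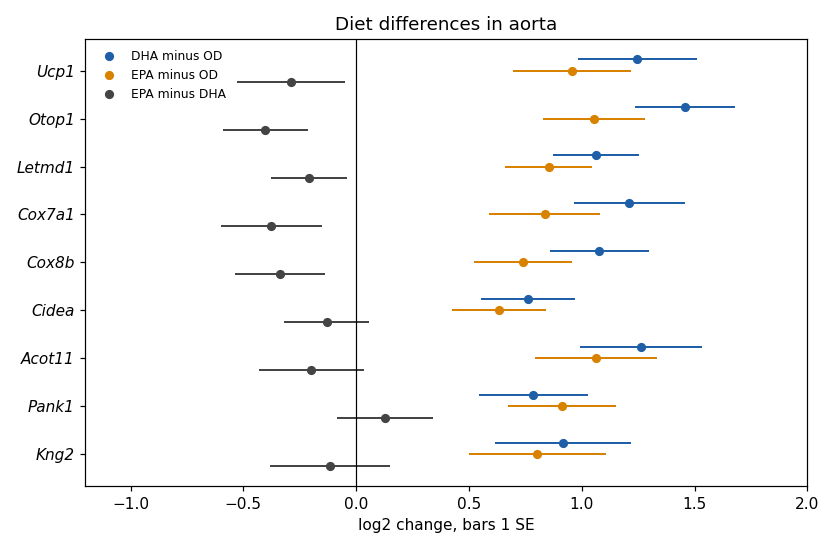
Log2 difference of each gene in aorta for 3 diet contrasts, as points with bars of 1 SE. DHA minus OD lies to the right of EPA minus OD for every gene but Pank1, and EPA minus DHA lies near 0, from -0.40 to 0.13.

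For 3 of the 9 members the counts were set beside those of 1 sister gene. The share within each pair needs no scaling between libraries. Cox7a1 made up 63.0% ± 7.39 of the counts of Cox7a1 and Cox7a2 in aorta (SD, n = 14), 14.9% ± 9.6 in skin and 1.49% ± 1.01 in liver. By diet the aortic share was 55.5% ± 9.77 on OD, 64.2% ± 2.94 on EPA and 67.9% ± 3.05 on DHA. OD 4 had the lowest share, 40.9%, and the other 3 OD aortas 58.9% to 61.5%. Cox8b made up 63.7% ± 4.08 of Cox8a and Cox8b in aorta, 18.4% ± 9.07 in skin and 0.514% ± 0.451 in liver. By diet it was 59.5% ± 3.81, 64.0% ± 3.41 and 66.9% ± 0.681 on OD, EPA and DHA, and the 5 DHA aortas lay between 66.1% and 67.6%.

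Kng2 and Kng1 swapped places between tissues. Kng2 held 241 of 303 counts of the pair in aorta, 79.5% (95% exact binomial interval 74.6% to 83.9%, counting error only), and 2308 of 16336 in liver, 14.1% (13.6% to 14.7%). In skin the pair had 35 counts, 5 of them Kng2. Across aortas the Kng2 share was 57.9% to 93.5%, with group means of 74.0% ± 15.4, 80.2% ± 8.62 and 80% ± 8.48 on OD, EPA and DHA. The ends of the 2 genes are alike: of the 50-base stretches in the last 500 bases of Kng2 transcripts 19.7% also occur in Kng1, and 10.7% the other way, so some counts of the pair are uncertain. No such stretch of the other 8 members occurs in another gene. Acot11 and Cidea overlap an exon of a gene on the opposite strand, with 0 to 1 and 0 to 3 counts per aorta.

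**Figure D4:**
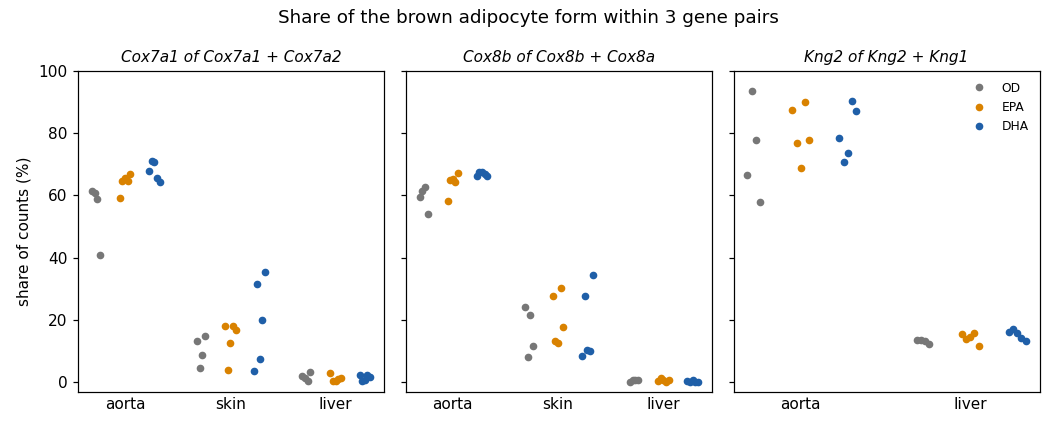
Share of counts within each gene pair, 1 point a library, by tissue and coloured by diet (skin is left out for Kng2, with 35 counts of the pair in all). Cox7a1 and Cox8b hold over 40% of their pairs in every aorta and under 4% in every liver, and Kng2 falls from 57.9% or more in aorta to 17.2% or less in liver.

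The sister genes themselves were measured in the same fit. Their list was chosen with earlier results of these data known, so its calls describe this contrast and are no independent test. Of 17 listed paralogues 8 were tested in aorta, and 3 were called higher on DHA than on OD by edgeR: Letm1, a mitochondrial ion carrier (0.73 ± 0.19, adjusted p = 0.0255), Cox8a (0.65 ± 0.17, adjusted p = 0.0289) and Cox7a2 (0.54 ± 0.14, adjusted p = 0.0258). The other 5 were Cidec, a droplet protein of white and brown fat (0.48 ± 0.23), Pank2 (0.28 ± 0.32), Cox7a2l (0.22 ± 0.15), Pank3 (0.11 ± 0.19) and Ucp2, an uncoupling protein relative found in many cells (-0.17 ± 0.30). Without the 3 aortas high in Acta1, and without OD 3, OD 4, DHA 2 or DHA 5, 0 of the 8 were called for DHA, and without DHA 1 it was 1. For EPA 0 of 8 were called, at 0.69 ± 0.19 for Letm1, 0.48 ± 0.17 for Cox8a and 0.40 ± 0.14 for Cox7a2, but 2 were called without OD 1 and 1 without OD 2 or EPA 1.

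Genes that work with the members were read from lists, members left out, beside 4.28% of all genes called higher on DHA. These lists too were chosen with earlier results of these data known. Their counts describe this contrast and are no independent test, here and in the paragraphs on lists that follow. These calls rest on few libraries: 319 genes were called for DHA minus OD in either direction, 29 without the 3 aortas high in Acta1, 70 without OD 4 and 128 without OD 3. Of the cytochrome c oxidase subunits and assembly factors 12 of 20 tested were higher and 0 lower on DHA, with a median of 0.67. Among them were Cox6b1 (0.84 ± 0.16, adjusted p = 0.00587), Ndufa4 (0.78 ± 0.15, adjusted p = 0.00624), Cox6a1 (0.75 ± 0.16) and Cox5a (0.90 ± 0.19). The count was 0 without the 3 aortas high in Acta1, with a median of 0.66, and 4 without OD 4, 6 without OD 3 and 8 without DHA 2. Of the fatty acid burning and other thermogenic partners 8 of 32 were higher and 0 lower, median 0.68. Acsl5, which activates fatty acids, had 1.34 ± 0.22 (adjusted p = 0.00239), the glycerol phosphate shuttle enzyme Gpd2 0.92 ± 0.19, the electron transfer enzyme Etfdh 0.79 ± 0.17 and the fatty acid binding protein Fabp3 0.90 ± 0.20. Without the 3 aortas high in Acta1, 2 of 31 were called, Acsl5 and Gpd2, with a median of 0.71, and 2 without OD 4 and 5 without OD 3. The median for EPA was 0.48 in the first list and 0.62 in the second, with 0 called in each, against 0.229% of all genes. Without EPA 1 the EPA counts were 8 and 9, without OD 1 they were 7 and 7, without OD 2 they were 0 and 4, and without the 3 aortas high in Xist they were 2 and 4.

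Upstream of UCP1, 6 of 19 genes of adrenergic lipolysis were higher on DHA and 0 lower, median 0.50. Prkar2b, a regulatory subunit of protein kinase A, had 0.78 ± 0.18 (adjusted p = 0.014) and Pde3b, which breaks down cAMP, 0.89 ± 0.21 (adjusted p = 0.0154). The lipases Mgll and Pnpla2 had 0.72 ± 0.17 and 0.56 ± 0.15, both called. The count of 6 was 0 without the 3 aortas high in Acta1 (median 0.47) and without OD 4, 3 without OD 3, DHA 1, DHA 2 or DHA 5, and 4 without OD 2, DHA 3 or DHA 4. Of the regulators of brown adipocytes 2 of 29 were higher and 0 lower, with a median of -0.01. They were the nuclear receptor genes Esrra (1.00 ± 0.26, adjusted p = 0.0255) and Pparg (0.82 ± 0.24, adjusted p = 0.0496). Prdm16 was at -0.57 ± 0.24 and Ppargc1a, a coactivator of mitochondrial genes, at 0.43 ± 0.43, neither past the threshold. Of the 2 calls 0 were left without the 3 aortas high in Acta1, without OD 4, DHA 2, DHA 3 or DHA 5, 1 without the 3 aortas high in Xist and 1 without any 1 of OD 1, OD 3, EPA 2, EPA 3, EPA 5 or DHA 1, while 4 were called without DHA 4.

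Around the smaller members, Coasy, the last enzyme of coenzyme A synthesis (1.12 ± 0.28, adjusted p = 0.0241), and the thioesterase Acot13 (0.64 ± 0.18, adjusted p = 0.0436) were the 2 of 8 genes of coenzyme A supply called higher on DHA, with 0 lower and a median of 0.46. Of 4 tested genes of the kallikrein-kinin system the peptidase gene Mme was called higher (1.24 ± 0.27, adjusted p = 0.0103) and 0 lower, with a median of -0.08. Without the 3 aortas high in Acta1, and without OD 3 or OD 4, 0 genes of both lists were called. For coenzyme A supply it was also 0 without OD 2 or any 1 of DHA 1, DHA 2 and DHA 3, and 1 without OD 1, DHA 4, DHA 5 or the 3 aortas high in Xist. For EPA 0 genes of these 4 lists were called, with medians of 0.59, 0.06, 0.37 and -0.28 in the order given. The EPA count of adrenergic lipolysis was 8 without EPA 1, 3 without OD 1, 1 without OD 2 and 5 without the 3 aortas high in Xist, that of coenzyme A supply 1 without EPA 1 or without the aortas high in Xist, and that of the kallikrein-kinin system 1 without OD 2.

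Markers of the cells that an aorta sample could hold moved too, in lists chosen with earlier results known. Of all 6538 genes tested in aorta, 39 were called lower on DHA than on OD. Of the white adipocyte list 9 of 17 tested were called higher on DHA and 0 lower, median 0.70, led by Gpd1 (1.32 ± 0.25, adjusted p = 0.00511), Slc2a4, Dgat2 and Cd36. The count was 0 without the 3 aortas high in Acta1, with a median of 0.70, 1 without OD 4, 3 without DHA 2, 4 without OD 3, DHA 1 or DHA 5, and 5 without DHA 3. For EPA it was 0 of 17, median 0.56, but 9 without EPA 1, 3 without OD 1, 1 without OD 2 and 2 without the 3 aortas high in Xist. The summed level of the list was 7410 to 10331 CPM on OD, 7953 to 17081 on EPA and 12276 to 14429 on DHA. OD 4 had the lowest sum of the 14 aortas and EPA 1 the next. Of the genes called for DHA, Pparg was also called among the brown adipocyte regulators, and Pnpla2, Plin1 and Lipe in adrenergic lipolysis. Lep was too low to test in aorta. The list therefore does not tell white from brown adipocytes. Adipoq had 256 ± 53.3, 355 ± 102 and 352 ± 46.5 CPM on OD, EPA and DHA, a difference of 0.49 ± 0.20 for DHA that did not pass (adjusted p = 0.176). Of 14 smooth muscle markers 1, Smtn, was called lower on DHA (-0.60 ± 0.16, adjusted p = 0.0335), 0 higher, median -0.51, with sums of 15350 to 21531 on OD, 11848 to 17579 on EPA and 11639 to 14444 on DHA. The call of Smtn ended without the 3 aortas high in Acta1, without the 3 high in Xist and without OD 3, OD 4, DHA 1, DHA 2 or DHA 3, while 6 of the list were called lower without OD 1 or without EPA 1, and 2 without DHA 4.

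Of the skeletal muscle list 0 of 6 tested were called, median 1.82 (0.10 over the 2 tested without the 3 aortas high in Acta1), and sums ran from 95.2 to 226 CPM on OD, 87.0 to 1532 on EPA and 79.4 to 1114 on DHA. Without the 3 aortas high in Xist 2 of 14 were called higher, and 1 without EPA 1, EPA 2 or DHA 2. Of the heart list 0 of 8 were called, median 1.23 (0.32 over the 5 tested without the aortas high in Acta1), with sums of 102 to 552, 146 to 1479 and 202 to 859. The natriuretic peptide gene Nppa had 3 counts over all 14 aortas and was at 0 in 12 of them. Myl2 was at 0 in 9 of them, while Myh6 reached 156 CPM, Mb 74.7 and Actc1 63.5. In the 2 muscle lists the smallest p for DHA minus OD were those of Myl1, Mb and Ttn. Their differences were 1.42 ± 0.44 (adjusted p = 0.0678), 2.15 ± 0.76 (adjusted p = 0.117) and 1.57 ± 0.73 (adjusted p = 0.263). Cox7a1 and Cox8b are also expressed in striated muscle. Of the endothelial list 1 of 10, Tek, was called lower (-1.04 ± 0.29, adjusted p = 0.0402), a call that ended without the aortas high in Acta1, without those high in Xist and without OD 1, OD 3, OD 4, DHA 1, DHA 2, DHA 4 or DHA 5. The hepatocyte, keratinocyte and haematopoietic lists had 0 called of 9, 3 and 6. The part of these cells in the differences of the members was not tested.

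Whether the members go together from mouse to mouse was examined within diets, by the slope of each gene on log2 Ucp1 across the 14 aortas with diet in the fit. All 8 other members had a positive slope, with a median of 0.57 beside 0.01 over all genes, and 0 passed the threshold, where 0.107% of 6537 genes passed with a positive and 0.26% with a negative slope. Kng2 had 0.78 ± 0.25 log2 units per unit of Ucp1 (adjusted p = 0.169), Acot11 0.74 ± 0.20 (adjusted p = 0.103), Cox7a1 0.68 ± 0.19 (adjusted p = 0.116), Pank1 0.59 ± 0.19 (adjusted p = 0.173) and Cox8b 0.56 ± 0.18 (adjusted p = 0.164). Letmd1 had 0.38 ± 0.16, Cidea 0.37 ± 0.18 and Otop1 0.31 ± 0.20, with adjusted p of 0.35, 0.42 and 0.628. At an unadjusted p under 0.05 were 7 of the 8, all but Otop1, beside 735 of the 6537 genes tested.

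The aorta OD 4, lowest of the 14 in 8 of 9 members, stood apart in other measures too. Its share of counts from mitochondrial genes was 10.97%, beside 14.3% in OD 3 and 20.96% to 30.8% in the other 12 aortas, and its summed haematopoietic markers were 100969 CPM, beside 2031 to 73689 in the other 13. The part of these in its low member levels was not tested. Without OD 4 the slope was 0.37 for Cox7a1, 0.32 for Cox8b, 0.24 for Pank1, 0.22 for Letmd1, 0.17 for Cidea and 0.16 for Otop1, while Kng2 was at 0.96 and Acot11 at 0.62. With Adipoq in place of Ucp1 all 9 members had positive slopes, from 0.14 ± 0.35 for Acot11 to 0.59 ± 0.32 for Ucp1, and 0 passed.

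**Figure D5:**
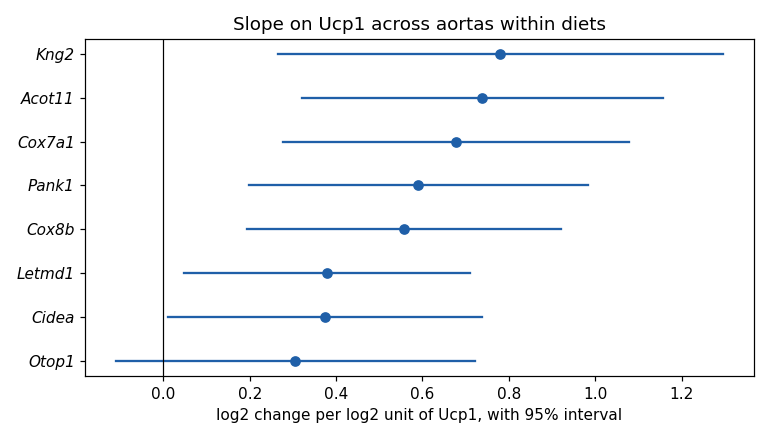
Slope of each of the other 8 genes on log2 Ucp1 across 14 aortas with diet in the fit, as points with 95% intervals. All 8 points lie above 0, from 0.31 to 0.78, and the interval of Otop1 reaches below 0.

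The genes whose within-diet pattern was most like that of Ucp1, by the smallest p of a positive slope among those past the threshold, were Elovl3 (1.33 ± 0.25, adjusted p = 0.0307), the malate dehydrogenase Mdh2 (0.56 ± 0.12, adjusted p = 0.0455), the respiratory chain and acyl carrier protein Ndufab1 (0.54 ± 0.12), the copper chaperone Cox17 (0.56 ± 0.12), the fatty acid dehydrogenase Acadm (0.60 ± 0.13) and cytochrome c, Cycs (0.63 ± 0.14). The most opposite were the Notch ligand gene Jag1 (-1.44 ± 0.22, adjusted p = 0.00682), the signalling inhibitor Spry2 (-1.83 ± 0.30), the small GTPase gene Rap2b (-1.84 ± 0.30), the TGF-beta binding protein gene Ltbp1 (-0.70 ± 0.14) and Pam (-1.17 ± 0.23), which amidates peptides. The number past the threshold was 24. It was 0 without the 3 aortas high in Xist, where the genes named kept the sign of their slopes with adjusted p of 0.0708 to 0.482, and 4 without the 3 aortas high in Acta1, Jag1, Spry2 and Rap2b among them. It was 0 without OD 2 or OD 4, 1 without EPA 1, 3 without EPA 2, 4 without DHA 1 or DHA 5, 5 without OD 3, 9 without DHA 3, 12 without EPA 4, 14 without EPA 3, 45 without EPA 5 and 53 without OD 1.

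The choice of members used no liver values, and 2 of them could be tested there. The labels do not say whether the livers came from the same mice as the aortas. Pank1 had 313, 318, 230.0 and 315 CPM in OD 1 to 4, 425, 414, 469, 271 and 464 on EPA, and 479.8, 334, 479.9, 340.5 and 327 on DHA. Every DHA liver was above every OD liver, as for 1.22% of the 5018 genes tested, while EPA 4 fell within the OD range (0.737% of genes had every EPA liver above OD). The difference was 0.41 ± 0.18 log2 units for DHA (95% interval 0.03 to 0.80, adjusted p = 0.793) and 0.47 ± 0.18 for EPA (0.08 to 0.86, adjusted p = 0.698), so neither passed.

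Kng2 in liver had 356, 342, 319 and 351 CPM on OD, 354, 364, 245, 412 and 276 on EPA, and 388, 327, 261, 302 and 329 on DHA. The 3 groups overlapped. Its differences were -0.09 ± 0.16 for DHA (-0.42 to 0.24) and -0.05 ± 0.16 for EPA (-0.39 to 0.28), and the sign of either turned under total-count scaling (0.058 and 0.084). In liver 0% of genes passed in any of the 3 diet contrasts, with 309 (DHA), 336 (EPA) and 184 (EPA minus DHA) at an unadjusted p under 0.05; DESeq2 called 2 and 4 genes against OD and limma 0.

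In ear skin the members were too low to test. Over the 14 libraries they summed to 97 counts for Cox8b, 83 for Pank1, 63 for Cidea, 57 for Cox7a1, 23 for Ucp1 and 11 for Letmd1. By diet Ucp1 summed to 8, 9 and 6 counts on OD, EPA and DHA, Cox8b to 32, 35 and 30 and Cidea to 21, 22 and 20, so no diet difference was detectable at this depth.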

How the data were processed

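RNA from 42 tissue samples was made into libraries from 10 ng of RNA with a 3′ kit that tags samples and molecules, per the labels' protocols. The aligner, the handling of molecular tags and the strand counted are not stated here. GRCm38.p6 and edgeR are named by the submitters' processing notes. The deposited table holds whole-number counts per gene and was used for every value. The authors' deposited normalised values are a score in their own scale, each column a fixed multiple of its counts, and were not used for results.

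For each tissue 1 edgeR 4.0.16 model (R 4.3.3) held the 3 diets, after filterByExpr (minimum count 10), with TMM scaling, the quasi-likelihood test and Benjamini-Hochberg adjustment over all genes tested in a contrast, called at adjusted p under 0.05. Tissues were compared in 1 fit of 9 groups as independent samples, since no label ties libraries of different tissues to 1 mouse. Each SE comes from the log2 change and its F statistic (change over root F). CPM use the tested genes' total, which holds 94.3% of counts in aorta, 95.3% in liver and 71.5% in skin. Group sizes follow the labels, which describe separate mice.

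The alternatives were DESeq2 1.42.0, limma 3.58.1 with voom, total counts as scaling, no filter, a robust prior, each library left out in turn, libraries with high Xist left out, and other sets of samples in the fit. The members and all gene lists were chosen with earlier results of these data known. Leaving out the aortas with high Acta1, and leaving libraries out of the counts over gene lists, were added after seeing the data. The genes named are the 9 members, tested paralogues and up to 4 called genes per list, by the smallest p for DHA minus OD in aorta. Where none was called, up to 2 are named. Up to 10 positive and 5 negative slopes past the threshold are named as well, and predicted genes are not named. Dio2, Prdm16, Ppargc1a, Cpt1b, Ebf2, Zic1, Lhx8, Lep, Adipoq, Nppa, Myl2, Myh6 and Actc1 are named as marker checks. Gene positions are from GENCODE M21 on GRCm38. The fits were tested on simulated counts.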

Additional observations from a re-analysis of the deposited data

Results flagged for a closer look

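In 33 groups of 4 or 5 libraries (9 members in aorta and 2 in liver, 3 diets each) 4 held a library far from the others of its group, where chance flags about 1 group in 20. The members of a tissue share the same libraries, so the groups are not independent and no excess over that rate was tested. In aorta, EPA 1 had 1030 CPM of Cox7a1 against 1543 to 1661 in the other 4 EPA libraries, and 1480 CPM of Cox8b against 2221 to 2443. In liver, OD 3 had 230 CPM of Pank1 against 313 to 318 in the other OD libraries, and EPA 4 had 271 CPM against 414 to 469 in the other EPA libraries. EPA 1 is 1 of the 3 aortas with high Xist; its part in these values was not tested.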

How the results depend on the processing

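Differences of the 9 members kept their direction in all 3 aortic diet contrasts and in aorta against liver and against skin under every alternative run; the counts of calls did not. Calls are given as genes, then members, whose aortic counts against OD describe the values that chose them and test nothing. For EPA minus OD in aorta they were 18 and 1 as reported, 200 and 7 with DESeq2, 257 and 8 with no filter, 85 and 4 with a robust prior, and 48 and 4 with limma voom. They were 6 and 0 with total counts, 100 and 0 without the libraries high in Xist, 3 and 0 without the aortas high in Acta1, 0 and 0 with only the 2 diets compared, 1 and 0 with all tissues in 1 fit, and 0 to 257 and 0 to 7 with each library left out in turn. For DHA minus OD they were 319 and 7 as reported, 29 and 1 without the aortas high in Acta1, 205 genes with total counts and 116 genes with all tissues in 1 fit. With each library left out they were 70 to 374 genes, lowest without OD 4, and 5 to 8 members, with 5 without OD 3. EPA minus DHA in aorta gave 12 genes with no filter.

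In liver, 0 genes as reported became 2 (DHA minus OD) and 4 (EPA minus OD) with DESeq2, 3 (EPA) with total counts, 112, 131 and 40 (the last EPA minus DHA) with no filter, 5 (EPA) without the libraries high in Xist, 1 (EPA) with only the 2 diets, 3 and 18 with all tissues in 1 fit, and 0 to 1 for DHA and 0 to 1 for EPA with each library left out. In skin, no filter gave 13, 21 and 3, and leaving out each library 0 to 4 for EPA minus OD. Kng2 in liver turned sign for DHA minus OD (0.058) and EPA minus OD (0.084) with total counts, for EPA minus OD without EPA 3 (0.037) and without EPA 5 (0.0082), and for EPA minus DHA without DHA 3 (-0.028) and without EPA 4 (-0.051), each within its SE. With each library left out it ran from -0.14 to 0.037 for EPA minus OD and from -0.051 to 0.127 for EPA minus DHA. The slope on Ucp1 gave 24 genes and 0 members as reported, 9 genes with total counts, 132 and 1 with no filter, 56 and 2 with limma voom, 695 and 8 with no term for diet, 0 genes without the libraries high in Xist or with Adipoq in place of Ucp1, 4 without the aortas high in Acta1, and 0 to 53 genes and 0 to 1 members with each library left out. The cause of these shifts was not tested. No paired analysis was made, since no label ties libraries of different tissues to 1 mouse. The libraries high in Xist stand at the same places of the accession order in all 3 tissues. Whether those places share mice was not tested. Depth limits skin, where no member could be tested, and liver, where 2 could.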
